A study of Saccharomyces cerevisiae with 19 samples.

Results

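Ribosome footprints of 4 libraries called low were set against mRNA in wild-type Saccharomyces cerevisiae of the laboratory strain BY4741, gene by gene. The 8 libraries, of 19 in all, were chosen by title: Nonrandom low (n = 2) and 4+3N low (n = 2) from ribosome profiling, and Nonrandom (n = 2) and 4+3N (n = 2) from mRNA-seq. Nonrandom and 4+3N are names of the preparation, that is of the linker and reverse transcription primer used, in a series that asked how random bases in these oligonucleotides affect footprint counts. What low stands for, and how the mRNA was extracted and fragmented, is not given in the sources used here. All 8 libraries came from cells grown in YPD from an OD600 of 0.02 to 0.4, given cycloheximide for 1 min, filtered and frozen. For profiling, the lysis buffer held 100 μg/ml cycloheximide, and monosome footprints of 28 to 32 nt were cut out after RNase I digestion. No label says that replicates are separate cultures, so the p-values below measure the spread between these libraries, which may be technical.

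A ribosome that is translating an mRNA protects a short stretch of it from nuclease, and the number of such footprints on a gene grows both with the amount of its mRNA and with the number of ribosomes on each mRNA. Dividing footprint reads by mRNA reads leaves a relative measure of ribosomes per mRNA, often called translation efficiency. In budding yeast this ratio is known to be low where upstream open reading frames (uORFs) or other elements of the mRNA hold ribosomes back from the main coding sequence, as in GCN4 and HAC1, and high for many abundant proteins of growing cells. It is a ratio of shares of 2 libraries, so it says nothing of total translation.

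Counted reads ran from 827353 to 2667016 in the 4 low libraries and from 2075213 to 3497303 in the 4 mRNA libraries. Replicates of a group had a biological coefficient of variation between 5.09% and 8.01%. The standard footprint libraries used for comparison (Nonrandom and 4+3N, n = 2 each) held 6906778 to 11656814 reads. Levels below are CPM, counts scaled to a common total by the TMM-adjusted library size, and a count of 3, the limit that 0 reads allow, was worth 1.31 to 4.65 CPM in the low libraries and 0.713 to 1.17 CPM in mRNA-seq. These limits cover counting error only. Among markers of this MATa strain, the pheromone receptor gene STE2 held 446 to 568 CPM in footprints and 624 to 652 CPM in mRNA. MF(ALPHA)1, an alpha-factor gene, held 0 footprint reads and 2 mRNA reads over all 8 libraries. The other alpha-cell genes listed, SAG1, MF(ALPHA)2 and STE3, held 504, 88 and 61 mRNA reads and 17, 1 and 14 footprint reads. SAG1 averaged 39.81 CPM in mRNA, between the a-cell genes AGA2 (33.07) and MFA1 (43.95). The a-cell genes STE2, STE6, BAR1 and MFA2 lay higher and ASG7 lower. Levels in mRNA thus did not set all markers of the mating types apart. The low tables list genes in another order than the mRNA tables, with between 10.7% and 11.2% of neighbouring genes the same, where the mRNA tables share at least 98.3% among themselves. Assay and any difference in how the tables were counted therefore cannot be told apart. This bears most on genes with a near-identical copy elsewhere in the genome, as the treatment of multiply aligned reads is not given in the sources used here.

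Footprints and mRNA differed for most genes. In a fit with preparation as a covariate, the ratio of footprint to mRNA was higher than the TMM reference in 1845 of 5385 genes tested (34.3%) and lower in 2153 (40%), together 74.2%, by edgeR's quasi-likelihood F test at an adjusted p of 0.05. The counts of list members with TMM that follow are read against these shares of 34.3% and 40%. A fitted change of over 2-fold was found for 512 of the higher genes (9.51% of those tested) and 996 of the lower (18.5%). The libraries of the 2 assays did not overlap for 502 of those 512 genes and for 978 of those 996, against 65.7% of all genes tested. Those genes were chosen by their change in the same libraries, so this adds no separate support. The ratio ran from −2.69 at the 5th percentile of genes through −0.07 at the median to 1.28 at the 95th, on the log2 scale. The tail toward few footprints was the longer, with the 1st percentile at −6.37 and the 99th at 1.96. At over 8-fold, 231 genes were lower and 16 higher. These are fitted values, which depend on a prior count where an assay has 0 reads. That held for 54 tested genes in footprints and 4 in mRNA. GTO1, for example, was fitted at −8.55 but is bounded at only 7.44-fold lower. The part of read depth and of the filter in the longer tail was not tested. Where zero lies on this scale depends on the scaling. With library totals in place of TMM, ratios were lower by a median of 0.58. The shift was smaller for some genes with 0 reads in an assay, such as GTO1 (−8.55 with TMM, −8.73 with library totals). With library totals 727 genes were called higher and 3608 lower (128 and 1906 over 2-fold). Of the genes called higher with TMM, 238 were called lower with library totals, and 0 turned the other way. Values are therefore best read against the median gene, which lay at −0.65 with library totals. Counts of list members with library totals are read against 727 higher and 3608 lower of all 5385 genes, not against 34.3% and 40%. The 100 genes with most reads held 41.9% to 44.9% of reads in the low libraries and 34.7% to 35.9% in mRNA-seq.

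**Figure D1:**
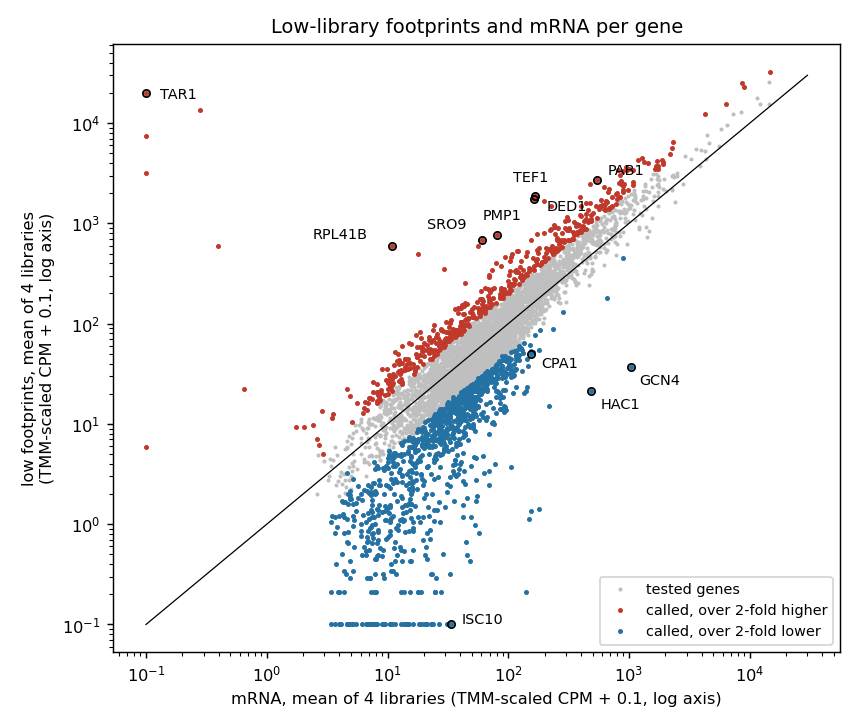
Each point is 1 of the 5385 tested genes, with its mean level in the 4 mRNA libraries (x) and in the 4 low footprint libraries (y), both in TMM-scaled CPM plus 0.1 on log axes. Red and blue mark genes called over 2-fold higher (512) or lower (996) in footprints, and the line marks equal levels. GCN4 and HAC1 lie far below the line and DED1, SRO9 and PMP1 far above it.

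The genes described next had the largest fitted rises among those at 20 CPM or more in an assay and without library overlap, leaving out near-identical copies and 5 ORFs at ribosomal RNA and similar loci. DED1 (YOR204W, chromosome XV, 722911 to 724725), a DEAD-box RNA helicase that unwinds mRNA leaders for the scanning ribosome, had 1821 and 1631 CPM in the Nonrandom low replicates and 1778 and 1814 CPM in those of 4+3N low. In mRNA it stood at 175 and 164 CPM in Nonrandom and at 163 and 148 CPM in 4+3N. Footprints were thus far above mRNA in every library, with a log2 ratio of 3.44 (SE 0.08, edgeR adjusted p = 6.63e-30), a 10.9-fold difference. SRO9 (YCL037C, chromosome III, 57374 to 58678), a La-motif RNA-binding protein found with translating ribosomes, held 804, 716, 615 and 605 CPM in the low libraries against 73.0, 53.2, 64.2 and 49.7 CPM in mRNA. Its ratio of 3.53 (SE 0.10) was the largest in this group and differed from that of DED1 by less than its own standard error. PAB1 (YER165W, chromosome V, 510373 to 512106), the poly(A)-binding protein, held 2795, 2579, 2796 and 2621 CPM in footprints against 585, 512, 588 and 499 CPM in mRNA, a ratio of 2.31 (SE 0.08).

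Long coat and enzyme genes had similarly high ratios. CHC1, the clathrin heavy chain, held between 1349 and 1625 CPM in footprints and between 215 and 234 CPM in mRNA, with a ratio of 2.73 (SE 0.08). SEC16, which organizes sites where COPII vesicles form, held between 372 and 447 CPM in footprints and between 66.3 and 95.7 CPM in mRNA, a ratio of 2.37 (SE 0.10). URA2, the large bifunctional enzyme that starts pyrimidine synthesis, had the same ratio of 2.37 (SE 0.07), with 2386 to 2564 CPM against 455 to 498 CPM. Lack of overlap between assays was a condition for choosing these 3 genes, so it adds no separate support. At the other end of length, PMP1, a very small proteolipid that associates with the plasma membrane proton pump, held 690, 791, 756 and 833 CPM in footprints against 64.5, 104, 83.3 and 70.6 CPM in mRNA, a ratio of 3.24 (SE 0.10). MFA1, a gene for the a-factor mating pheromone, held 304, 250, 257 and 206 CPM against 41.3, 35.9, 48.2 and 50.4 CPM, a ratio of 2.55 (SE 0.11). Both genes were also higher in low than in standard footprint libraries, by 1.14 and 0.73 on the log2 scale.

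**Figure D2:**
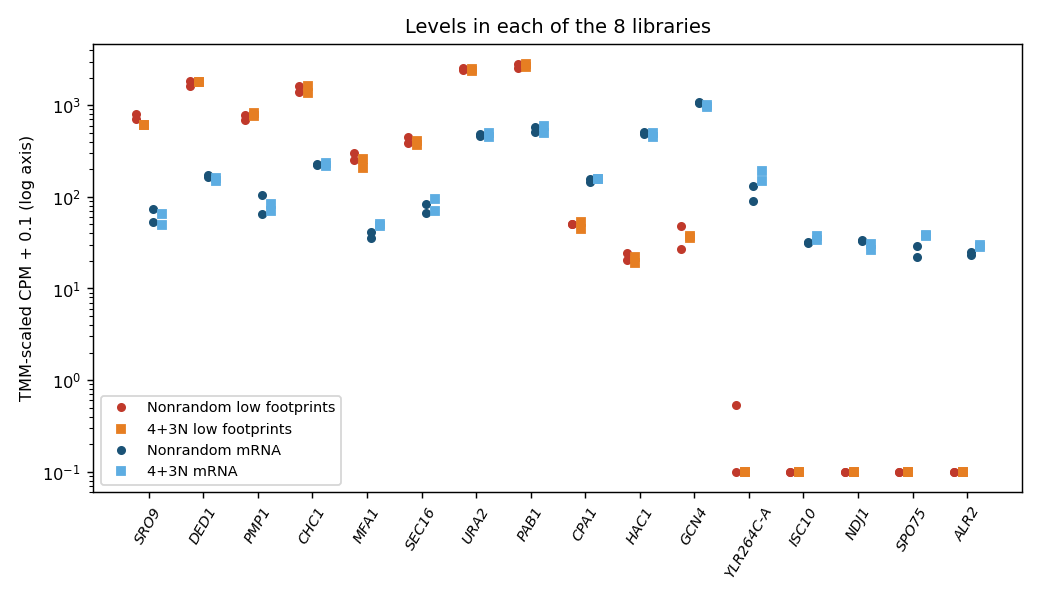
Levels in TMM-scaled CPM plus 0.1 (log axis) of 16 genes in each of the 8 libraries, with footprints in red and orange and mRNA in blue. The 8 genes at the left lie higher in all 4 footprint libraries, the 8 at the right lie lower, and ISC10, NDJ1, SPO75 and ALR2 have 0 footprint reads.

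GCN4, the transcription activator of amino acid synthesis whose mRNA carries uORFs, had the lowest ratio among the uORF genes listed. GCN4 (YEL009C, chromosome V, 138918 to 139763) held 48.3, 26.6, 37.2 and 35.2 CPM in the low libraries against 1058, 1092, 1001 and 964 CPM in mRNA, a ratio of −4.87 (SE 0.12, edgeR adjusted p = 5.21e-30) or a 29.2-fold difference. HAC1 (YFL031W, chromosome VI, 75179 to 76147), the unfolded protein response regulator whose mRNA is kept from translation by an intron until it is spliced in stressed cells, held 24.2, 20.5, 21.7 and 19.0 CPM against 506, 488, 503 and 455 CPM, a ratio of −4.52 (SE 0.11). Neither gene had a low library near its mRNA libraries. CPA1, the arginine-regulated carbamoyl phosphate synthetase subunit whose mRNA encodes an arginine attenuator peptide, held 50.6, 50.6, 44.9 and 53.3 CPM against 144.6, 156, 156 and 157 CPM, a ratio of −1.60 (SE 0.11).

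Of 29 genes listed for uORFs, 19 were lower (65.5% against 40% of all genes), 6 were higher and 4 did not pass, with a median ratio of −0.68 against −0.07 for all genes tested. With library totals 24 were lower and 1 higher. After GCN4, the lowest were MBR1 at −3.45, WSC3, a cell wall stress sensor, at −3.24, PPR1, the activator of pyrimidine genes, at −2.29, and PET111, an activator of mitochondrial translation, at −2.18. YAP1, the oxidative stress regulator, did not pass with TMM (−0.11, SE 0.10, adjusted p = 0.304) and was called lower with library totals (−0.69). CLN3, the G1 cyclin, fell by 0.45 (SE 0.15, adjusted p = 0.00910) on the log2 scale, but not without the first Nonrandom mRNA library (adjusted p = 0.0522) or in 4+3N alone (adjusted p = 0.243). Higher members included TIF4631, which encodes the scaffold eIF4G, at 1.37 (SE 0.08), with 841 to 1051 CPM in footprints and 340 to 408 CPM in mRNA, and SCH9 and RPC11 at 0.64 and 0.83.

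Of 5 genes with another known control of translation, 4 were lower and 1 higher. OAZ1, the antizyme made by a programmed frameshift, fell by 1.26 (SE 0.21) on the log2 scale, with 13.6, 10.04, 18.6 and 7.61 CPM in footprints against 26.0 to 29.2 CPM in mRNA. EST3, a telomerase subunit made by frameshifting, fell by 0.98 (SE 0.18), with 4+3N low replicate 1 the lowest footprint value at 9.30 CPM. ASH1, whose mRNA is held silent during transport to the daughter cell, fell by 0.52 (SE 0.11) with overlap between the libraries. ABP140, a further gene read by frameshift, was higher at 0.74 (SE 0.09), a call lost with library totals (adjusted p = 0.101).

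Some genes had mRNA reads but not a single footprint read in any low library. There were 54 of these among the 5385 tested, all of them among the 996 called over 2-fold lower. They passed the filter through mRNA reads alone, so their direction was fixed in advance. ISC10, a sporulation gene, held 32.1, 30.9, 37.7 and 33.7 CPM in mRNA, and was at least 12.1-fold lower in footprints when set against the mean floor of 3 reads per library. SPO75, a further sporulation gene, held 22.1 to 37.9 CPM in mRNA and was at least 11.5-fold lower. NDJ1, a meiotic telomere protein, held 26.5 to 33.8 CPM and was at least 11.1-fold lower. ALR2, THI22, THI74 and GTO1 had bounds of 9.60, 8.38, 8.27 and 7.44. Beyond these, YLR264C-A, an open reading frame of 117 bases, held 89.8, 131, 147 and 194 CPM in mRNA and 1 footprint read in all, in Nonrandom low replicate 2. Whether counting used strand is not given in the sources used here, so mRNA reads of these genes and of antisense transcripts cannot be told apart.

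Tested genes of meiosis and of the opposite mating type were mostly lower in footprints. Of 15 meiosis and sporulation genes 11 could be tested, and 10 were lower (against 40% of all genes) and 0 higher, with a median of −1.68. The filter dropped genes low in both assays. All 10 genes called lower, such as HOP1 (5 footprint and 87 mRNA reads) and IME2 (0 and 170), passed it only through mRNA. Their direction was thus fixed in advance, and the count and the median rest on the filter. In each preparation alone 5 of the 11 were called lower. Their summed level ran from 29.5 to 35.5 CPM in the low libraries and from 93.7 to 120 CPM in mRNA. NDT80, the transcription factor of mid-meiosis, held 3.02, 4.36, 9.30 and 2.85 CPM in footprints against 17.5 to 26.0 CPM in mRNA, and IME2, a meiotic kinase, held 0 reads against 11.6 to 15.95 CPM, at least 4.86-fold lower. IME1, the master regulator of entry into meiosis, did not pass (−0.17, adjusted p = 0.522). Among alpha-cell genes SAG1, alpha-agglutinin, fell by 3.61 (SE 0.27), from 35.3 to 42.4 CPM in mRNA to 1.75 to 6.20 CPM in footprints, and STE3, the a-factor receptor, did not pass at 2.67 against 4.74 CPM. SAG1 and STE3 also passed the filter only through mRNA. In such bulk libraries few expressing cells and little RNA per cell cannot be told apart. Of 7 a-cell genes 5 were higher and 1, STE2, was lower, by 0.31 (SE 0.08), against 34.3% and 40% of all genes. With library totals 3 were higher and 2 lower. AGA2, the adhesion subunit of a-agglutinin, stood at 103 ± 21.2 CPM in footprints and 33.1 ± 6.52 CPM in mRNA (SD, n = 4), a ratio of 1.63 (SE 0.14).

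Tested sugar transporter genes lay mostly on the low side. Of 18 hexose transporter and sensor genes 11 were tested, of which 7 were lower (40% of all genes), 1 higher (34.3%) and 3 not passed, with a median of −1.64. The filter dropped genes low in both assays. Of 6 members with 0 footprint reads 1 was tested, having passed through mRNA alone, and with its bound the median was −1.58. With library totals 10 were lower and 1 higher. HXT2, a high-affinity glucose transporter, was the higher gene, with 688, 663, 707 and 706 CPM in footprints against 303, 327, 323 and 339 CPM in mRNA, a ratio of 1.10 (SE 0.07). HXT1, HXT3 and HXT4 lay at 0.07, 0.16 and 0.01 and did not pass. RGT2, the low-affinity glucose sensor, fell by 2.14 (SE 0.22) and SNF3, the high-affinity sensor, fell by 1.64 (SE 0.27), with 43.4 and 20.8 CPM of mRNA on average. GAL2 and HXT5 fell by 3.39 and 2.73. Of 30 cell wall mannoprotein genes 19 were higher and 10 lower (34.3% and 40% of all genes), and with library totals 11 were higher and 14 lower. The structural proteins CWP2 (1.42), HSP150 (1.26), CCW14 (1.11) and ECM33 (1.07) were higher, while the flocculins FLO1, FLO5, FLO9 and FLO11 and the anaerobic mannoproteins DAN1, TIR2 and TIR4 were lower, FLO9 and FLO11 with 0 footprint reads. TIR1 of the same family was higher at 1.22 (SE 0.10).

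The translation machinery lay mostly on the high side. Of 26 initiation factor genes 22 were higher (84.6% against 34.3% of all genes), 1 was lower and 3 did not pass, with a median of 0.76. With library totals 13 were higher and 4 lower and the median was 0.17. After DED1 and PAB1, the largest ratios were those of the eIF4G genes TIF4632 (1.62, SE 0.09) and TIF4631, of TIF11, which encodes eIF1A (1.45), FUN12, which encodes eIF5B (1.33), and GCD11, the gamma subunit of eIF2 (1.18). The eIF3 subunits RPG1, PRT1, NIP1, TIF34 and TIF35 lay between 0.50 and 0.81. Among the eIF2B subunits GCD2 was higher at 0.59 (SE 0.08), GCD1 was lower at −0.29 (SE 0.09), and GCD6, GCD7 and GCN3 did not pass at 0.09, 0.08 and 0.19. All but 1 of the 20 cytosolic aminoacyl-tRNA synthetase genes were higher and none lower, with a median of 0.69 (with library totals 8 higher, 2 lower, median 0.10). DPS1, the aspartyl-tRNA synthetase, had the largest ratio at 1.55 (SE 0.08), and GRS1, the glycyl-tRNA synthetase, at 0.14 was the one that did not pass.

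Of 11 elongation factor genes 9 were higher and 1 lower (9 and 2 with library totals), with a median of 1.30. The median was 1.00 over the 3 genes without a near-identical copy, all of them higher, and 0.12 for standard footprints over the same mRNA. YEF3, fungal elongation factor 3, held 15530, 14230, 16270 and 15530 CPM in footprints against 6494, 6649, 6108 and 5948 CPM in mRNA, a ratio of 1.29 (SE 0.07). EFB1, TEF4 and CAM1, subunits of the eEF1B exchange factor, lay at 1.30, 1.00 and 0.93, and HYP2, which encodes eIF5A, at 1.52. HEF3, the copy of YEF3, fell by 3.49 (SE 0.45). The other 4 large values came from identical copy pairs. TEF1 and TEF2, which both encode elongation factor 1 alpha, had ratios of 3.58 (SE 0.12) and 3.21 (SE 0.14), and EFT1 and EFT2, which both encode elongation factor 2, of 3.65 (SE 0.19) and 3.49 (SE 0.14). TEF1 held 1515, 1915, 2033 and 1998 CPM in the low libraries against 115, 93.4, 216 and 242 CPM in mRNA.

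For these copy pairs the ratio depended on which footprint libraries were used. Standard footprint libraries of the same preparations, set over the same mRNA libraries, gave −1.37 for TEF1, −1.81 for TEF2, −0.96 for EFT1 and −1.24 for EFT2. The standard tables, unlike the low ones, follow the gene order of the mRNA tables, with 98% to 98.5% of neighbouring genes the same. A difference between low and standard libraries therefore cannot be told apart from one in how the tables were counted. Since the mRNA is shared, the test was made between the footprint libraries: TEF1 was higher in low than in standard libraries by 5.06 (edgeR adjusted p = 8.76e-07), with 1237, 1646, 1586 and 1598 CPM of the unadjusted library total against 14.5, 11.6, 119 and 144. The same test gave 5.11 for TEF2, 4.71 for EFT1, 4.80 for EFT2, 5.88 for RPL41A, 6.06 for RPL41B and 2.45 for RPL1B. YEF3, by contrast, lay at −0.05 (adjusted p = 0.744), although it too is marked as having a near-identical copy. DED1 lay at 0.10 (adjusted p = 0.542), and GCN4 and HAC1 also did not pass (0.02 and 0.59, adjusted p = 0.983 and 0.108). Values of genes with near-identical copies are therefore uncertain, even if not every such gene differed.

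**Figure D3:**
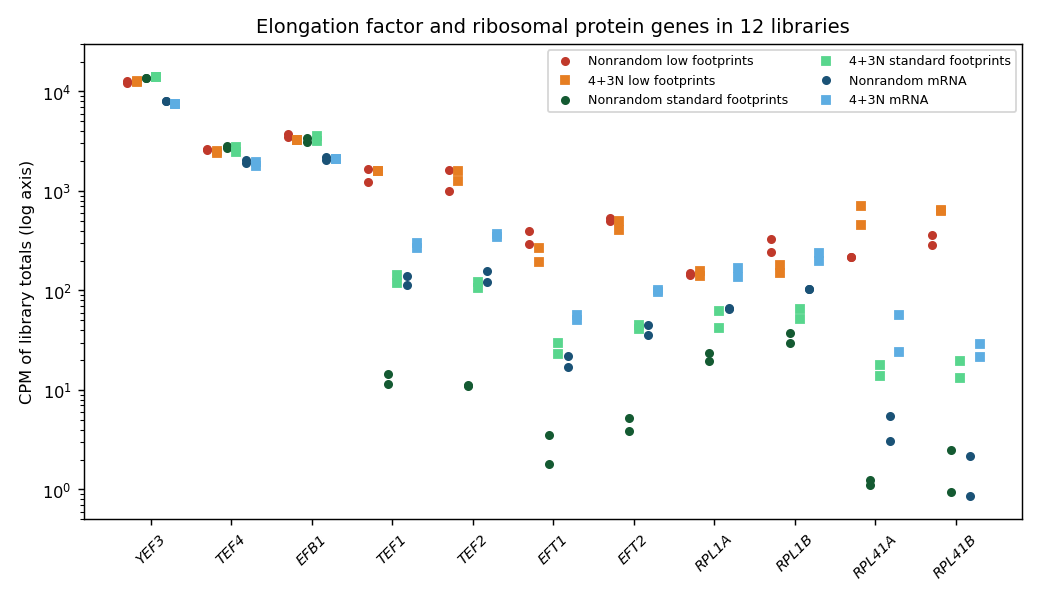
CPM of unadjusted library totals (log axis) of 11 genes in the 4 low footprint, 4 standard footprint and 4 mRNA libraries. For YEF3, TEF4 and EFB1 low and standard footprints lie together above mRNA, while for TEF1, TEF2, EFT1, EFT2, RPL1A, RPL1B, RPL41A and RPL41B the standard footprints lie below the low ones, and, save for RPL41B in Nonrandom, below mRNA of the same preparation.

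Ribosomal protein genes were less far from the median gene. Of 81 genes of the large cytosolic subunit 60 were higher and 11 lower, with a median of 0.60, and of 57 genes of the small subunit 31 were higher and 7 lower, with a median of 0.29. With library totals these counts were 32 and 31, and 11 and 33, with medians of 0.0027 and −0.31, so the direction from zero rests on the scaling. Both family medians lay above that of all genes with either scaling (−0.07 with TMM, −0.65 with library totals). Most have a near-identical copy. Among members that do not, 11 of 11 large-subunit genes and 6 of 9 small-subunit genes were higher, including RPS15 at 1.64 (SE 0.08) and RPS13 at 1.495 (SE 0.07). RPS15 held 4479, 3765, 4321 and 3918 CPM in footprints against 1380, 1280, 1338 and 1297 CPM in mRNA. Values within a copy pair were 1.76 for RPL6B and 0.73 for RPL6A, and −0.97 for RPL21B and −0.47 for RPL21A. RPL41A and RPL41B, which encode the smallest ribosomal protein, had ratios of 4.90 and 5.92 from very few mRNA reads (217 and 126 over all 4 libraries). Of 70 genes of the mitochondrial ribosome, none with a near-identical copy, 44 were higher, 2 lower and 24 not passed, with a median of 0.58 (with library totals 18 higher, 27 lower, median −0.0059). Of 50 ribosome biogenesis genes 33 were higher and 3 lower (17 and 21 with library totals), led by NOP16 at 1.90, RRP5 at 1.82 and NOP53 at 1.56.

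Respiratory chain and ATP synthase subunits encoded in the nucleus lay mostly on the high side, and none has a near-identical copy. Of 37 tested genes 33 were higher (34.3% of all genes), 20 of them over 2-fold (9.51% of all genes), and 1 was lower, with a median of 1.08, and with library totals 24 were higher and 6 lower. ATP1, the alpha subunit of the ATP synthase, held 1067, 844, 1000 and 928 CPM in footprints against 262, 235, 243 and 209 CPM in mRNA, a ratio of 2.01 (SE 0.08). The small subunits ATP19, QCR10, COX8, ATP18, COX7 and QCR8 lay between 1.72 and 2.07. The members CYT1, NDI1 and COX5B did not pass, at −0.03, −0.05 and −0.12, and QCR6 was the lower gene at −0.59 (SE 0.16). Of 16 tricarboxylic acid cycle genes 11 were higher and 1 lower (5 and 8 with library totals). KGD1, a subunit of the ketoglutarate dehydrogenase, stood out at 2.09 (SE 0.09) and CIT3, a minor citrate synthase, at −3.19 (SE 0.49).

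Of 22 glycolysis and fermentation genes 17 were higher (34.3% of all genes) and 2 lower (40%), with a median of 0.62 (7 higher and 6 lower with library totals, median 0.02). Both subunits of phosphofructokinase led, PFK2 with 3602, 3230, 3640 and 3204 CPM in footprints against 860, 814, 815 and 732 CPM in mRNA, a ratio of 2.09 (SE 0.08), and PFK1 at 1.81 (SE 0.07). Pyruvate kinase CDC19 followed at 1.55 and phosphoglycerate kinase PGK1 at 1.35. TDH2 and TDH3, the main copies of glyceraldehyde phosphate dehydrogenase, did not pass at −0.09 and 0.09. The lower genes were ADH2, the glucose-repressed alcohol dehydrogenase, at −2.47 (SE 0.29) and PDC5, a minor pyruvate decarboxylase, at −1.45 (SE 0.21), both with near-identical copies. In amino acid biosynthesis 36 of 56 genes were higher and 10 lower (16 and 25 with library totals), from GLT1, glutamate synthase, at 2.16 (SE 0.09) and MET6, methionine synthase, at 1.91 down to ARG8 at −2.75 and SER3 at −2.79. Ergosterol genes lay close to the median gene, with 11 of 24 higher and 6 lower (4 and 15 with library totals). ERG1, squalene epoxidase, reached 1.49 and ERG7, which acts on its product, fell by 1.07.

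Membrane pumps and chaperones had several large ratios. Of 17 genes of the vacuolar ATPase and plasma membrane ATPase 12 were higher and 1, PMA2, was lower (7 and 7 with library totals). PMA2 is marked as having a near-identical copy. VMA10 held 421, 443, 498 and 472 CPM in footprints against 88.7, 101, 104 and 126 CPM in mRNA, a ratio of 2.13 (SE 0.08), VMA1 reached 1.78 and PMA1, the proton pump of the plasma membrane, 1.53. VMA5 and VPH1 lay at −0.05 and −0.04 and did not pass. Of 30 cytosolic chaperone genes 24 were higher and 2 lower (10 and 9 with library totals). Among them were the Hsp70 genes SSA1 and SSA2 at 1.88 and 1.87, STI1 at 1.85, SIS1 at 1.801 and SSE1 at 1.66. The CCT chaperonin subunits CCT4, CCT5 and CCT8 did not pass, at 0.10 to 0.14. The stress-induced Hsp70 gene SSA3 fell by 4.39, with 1.73 CPM in footprints against 45.1 CPM in mRNA. Its footprint level lies within the range of 1.31 to 4.65 CPM that 3 reads were worth. Each of the 2 lower chaperone genes is marked as having a near-identical copy, so their values are uncertain. The 33 proteasome genes lay between −0.35 and 0.98, with 25 higher and 1 lower but 0 over 2-fold, and 6 higher and 16 lower with library totals. RPN4, the transcription activator of proteasome genes, was the lower gene at −0.35 (SE 0.10).

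Of 24 cyclin and cyclin-dependent kinase genes 15 were lower (40% of all genes) and 4 higher (34.3% of all genes), with a median of −0.45 (20 lower and 1 higher with library totals). PHO80, a cyclin of phosphate control, fell by 1.81 (SE 0.25), SWE1, the kinase that restrains entry into mitosis, fell by 1.17 (SE 0.15) and CLB3, a B-type cyclin, fell by 1.13 (SE 0.13). CLB2, the main mitotic cyclin, was the highest at 0.89 (SE 0.12), followed by the kinase adaptor CKS1 at 0.77 and CDC28 itself at 0.59. Of 10 histone genes 6 were higher and 3 lower (34.3% and 40% of all genes), and with library totals 5 were higher and 4 lower. Of the 10, 8 have a near-identical copy. The remaining histone genes, HTZ1 and HHO1, lay at 1.14 and 0.97.

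**Figure D4:**
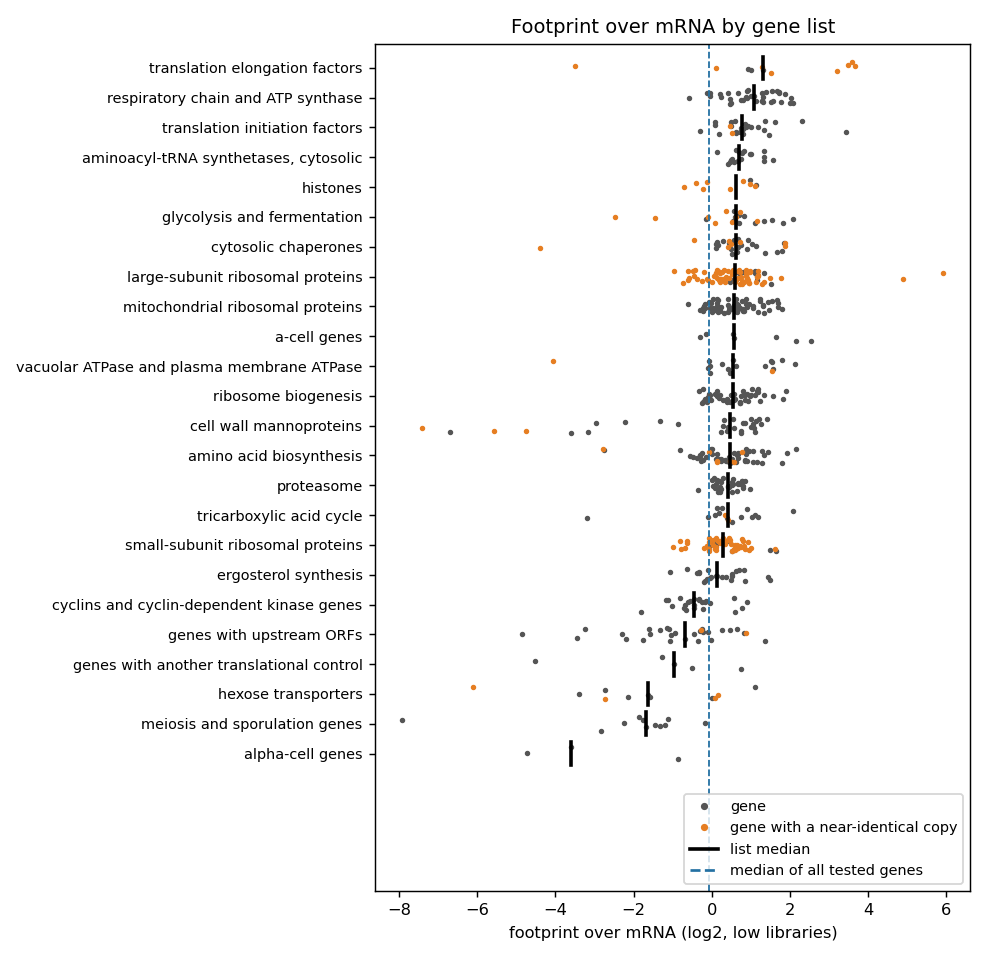
Fitted log2 ratio of footprint to mRNA for each tested gene of 24 lists (points), with the list median (black bars) and the median of all 5385 tested genes at −0.07 (dashed line). Orange points are genes with a near-identical copy, and points of genes with 0 footprint reads are fitted values that depend on a prior count. Respiratory genes have a median of 1.08, and elongation factors one of 1.30 that falls to 1.00 without copies.

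The ratio also varied with gene length. Genes under 300 bases had a median of 1.10 (n = 147), and 55.8% of them were over 2-fold higher, against 9.51% of all genes. The median was 0.64 from 300 to 599 bases (n = 638), 0.01 from 600 to 1199 (n = 1739), −0.36 from 1200 to 2399 (n = 2007), −0.29 from 2400 to 4799 (n = 761) and −0.08 from 4800 bases up (n = 90). The order was thus not the same throughout, with the lowest median in the fourth class. Without copies and the 5 ORFs described next, the median of the shortest class was again 1.10 (n = 138). Across 5382 genes, which share the same libraries, Spearman's rho of length and ratio was −0.297. Several of the high lists, such as the small respiratory subunits and mitochondrial ribosomal proteins, hold many short genes, and the part of length in their values was not tested. Among ORFs with a suffixed systematic name, many of them short and annotated late, 105 of 162 tested were higher and 30 lower, against 34.3% and 40% of all genes, with a median of 0.79 (70 and 46 with library totals, median 0.22).

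Besides genes translated into known proteins, 5 ORFs at ribosomal RNA and similar loci held 2.59% and 2.69% of reads in Nonrandom low and 4.91% and 4.23% in 4+3N low, and at most 3 reads each in mRNA over all 4 libraries. TAR1, on chromosome XII from 454696 to 455070 (R64, the build of the sacCer3 genome) and overlapping the ribosomal RNA gene RDN25-1, held 16580, 14250, 24610 and 24040 CPM in footprints and 0 mRNA reads, at least 20320-fold higher. YLR154C-G, on chromosome XII from 462522 to 462671 and overlapping RDN25-2, held 6120 to 9037 CPM and 0 mRNA reads, at least 7607-fold higher. YLR162W held 8255 to 18250 CPM with 2 mRNA reads in all and RRT15 380 to 888 CPM with 3. YPR159C-A, on chromosome XVI from 860314 to 860415 and overlapping a tRNA gene, held 348, 316, 10470 and 1551 CPM, so that 4+3N low replicate 1 alone set its mean, and was at least 3242-fold higher against 0 mRNA reads. All 5 were also higher in low than in standard footprint libraries, by 8.27 to 9.38 on the log2 scale. The source of the reads at these loci was not tested.

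The ratio was much the same in the 2 preparations, which share no library here. Across the 5385 genes the Nonrandom and 4+3N ratios had a Pearson correlation of 0.914, and of 0.908 over the 5164 genes without copies and the 5 ORFs. The 0.914 takes in the 54 genes with 0 footprint reads and the 4 with 0 mRNA reads. Their fitted values depend on a prior count in each preparation, and a correlation without them was not computed. Of 2923 genes called in both preparations, 2916 had the same direction, and 405 of the 512 genes over 2-fold higher and 841 of the 996 over 2-fold lower were so in each preparation. Those 512 and 996 genes were chosen by the fit to both preparations together. A difference between preparations was called for 48 genes (0.891% of those tested), with a larger ratio in 4+3N for 34 (0.631%) and a smaller one for 14 (0.26%), and 39 of the 48 have a near-identical copy. Of the 48, 32 encode cytosolic ribosomal proteins. The count rested on single libraries: it was 23 and 22 without Nonrandom low replicate 1 or 2, 20 and 21 without 4+3N low replicate 1 or 2, 27 without 4+3N mRNA replicate 1 and 79 without Nonrandom mRNA replicate 1. When copies and the 5 ORFs were left out, 3 genes passed. MFA2, the second a-factor gene, passed in the full set with ratios of 2.56 in Nonrandom and 1.68 in 4+3N, a difference of −0.88 (SE 0.18, edgeR adjusted p = 0.00104). It held 374 and 363 CPM in footprints of Nonrandom, 239 and 256 CPM in those of 4+3N, and 62.0 to 78.0 CPM in mRNA. RPL1B had the smallest p, with 2.02 in Nonrandom and 0.22 in 4+3N, and RPS6A and RPS6B, a pair of small-subunit genes, had ratios of −1.19 and −1.38 in Nonrandom against −0.10 and −0.19 in 4+3N. GCN4 (−4.93 and −4.77), HAC1 (−4.50 and −4.57), DED1 (3.35 and 3.54) and PAB1 (2.29 and 2.32) differed little between preparations, and none passed.

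**Figure D5:**
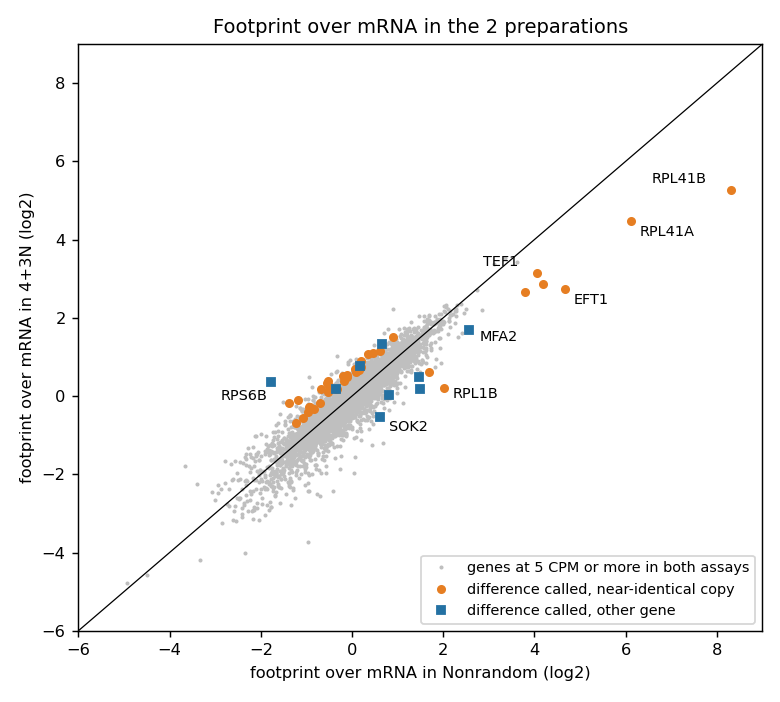
Log2 ratio of footprint to mRNA in Nonrandom (x) and 4+3N (y), drawn in grey for genes at 5 CPM or more in both assays, with the 48 genes whose ratio differed between preparations in orange (near-identical copy) and blue (other). Most genes lie along the line of equal ratios, and the called genes far from it are mainly copies such as RPL41B and EFT1.

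Low libraries could in principle give other ratios than the standard libraries of the same preparations (n = 4 each). With the mRNA libraries in common, this is a comparison of low with standard footprints, and it called 100 of 5174 genes (1.93%), 83 higher (1.6%) and 17 lower (0.329%) in low. As the low and standard tables differ in gene order, these calls and any difference in counting cannot be told apart. DESeq2 called 180, library totals gave 155 and a replicate block 222. Of the 21 that differed by over 2-fold, 18 were copies or the 5 ORFs. The others were PMP1 at 1.14 (SE 0.07, edgeR adjusted p = 9.71e-09), YJR112W-A at 1.98 (SE 0.25) and YOL013W-A at 3.02 (SE 0.71). YOL013W-A held at most 0.636 CPM in Nonrandom low against 45.6 and 27.8 CPM in 4+3N low. Over the same mRNA libraries PMP1 had a ratio of 2.14 in standard and 3.24 in low footprints. MFA1 and MFA2 were higher by 0.73 and 0.67, and MRPL39 and QCR8, of the mitochondrial ribosome and the respiratory chain, by 0.70 and 0.56. Short genes shared this direction, with a median difference of 0.16 from 150 to 299 bases (n = 124) and −0.04 from 1200 bases up (n = 2695). The table of standard Nonrandom replicate 1 lists each gene a second time with another count. With its other list 29 genes were called, and the calls of PMP1 (adjusted p = 0.198), MFA1 (0.263) and MFA2 (0.259) were lost. The count was 57 without Nonrandom low replicate 1 and 63 without 4+3N low replicate 1, and MFA2 was not called without Nonrandom low replicate 1 (adjusted p = 0.0555).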

How the data were processed

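For every library the authors deposited unnormalized counts of reads by gene, and a gene absent from a table was taken as 0. The sacCer3 genome, Bowtie 1.0.0 and CASAVA 1.8 are named in the submitters' processing notes. The counting tool, its use of strand and its treatment of multiple alignments are not given in the sources used here. The mRNA and standard footprint counts come from tables in another gene order than the low footprint counts. One low table (Nonrandom low replicate 2) names an alignment to a transcriptome in an additional column. Of 5748 genes in the tables used, 5744 matched the R64 annotation of RefSeq, and 251 were marked by name as having a near-identical copy. Gene lengths are annotated spans, 96.5% of them multiples of 3, and may include introns.

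Genes were filtered by filterByExpr, normalized by TMM and tested by edgeR 4.0.16 (R 4.3.3) quasi-likelihood F tests, two-sided, with Benjamini-Hochberg adjustment over all genes tested and a threshold of 0.05. Fits were made of 3 kinds: footprint over mRNA with preparation as covariate (8 libraries, residual degrees of freedom 5), its interaction with preparation (4), and low against standard footprints with preparation as covariate (5). Ratios are fitted log2 differences, footprint minus mRNA. Genes with 0 reads throughout an assay are given by a bound, using 3 reads in place of 0 for every library and the mean of these floors. The scripts were tested on simulated data. For standard Nonrandom replicate 1, whose table repeats its 5559 genes with other counts, the second list (total 11656814) was used, as it correlated with replicate 2 at 0.997 (0.959 for the first).

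The genes named were the 8 highest and 8 lowest ratios among those passing with at least 20 CPM in an assay, no overlap of libraries and no near-identical copy, up to 3 per list and 4 of the interaction by smallest p, and fixed genes. Other genes named as examples of their list, its lowest, highest or unpassed members, were chosen after their values were seen. Members and lists were chosen with earlier results of these data known. RPP1 (a subunit of RNase P) and MRP8 were taken out of lists formed by gene name after their values were seen, as neither is an established ribosomal protein. Lists are described by counts and medians and were not tested as sets. Equal replicate numbers were not treated as pairs, because no label ties them and residual correlations between assays were 0.012 to 0.090. Within an assay, between the preparations, these correlations were 0.031 for low footprints and 0.141 for mRNA. Alternatives were DESeq2 1.42.0, other scalings and filters, thinning, leaving out each library, copies or short genes, a test against a 1.5-fold change and a replicate block.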

Additional observations from a re-analysis of the deposited data

Results flagged for a closer look

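The ratio of footprint to mRNA in the low libraries differed between Nonrandom and 4+3N for 48 genes in a test of the difference itself (the assay by preparation interaction). At an unadjusted p under 0.05 there were 445. Differences below are 4+3N minus Nonrandom on the log2 scale, and each is followed by its behaviour when each of the 8 libraries was left out in turn.

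Called genes with near-identical copies included RPL41B at −3.05, EFT1 at −1.93, RPL1B at −1.80, RPL41A at −1.64, EFT2 at −1.34, TEF2 at −1.13 and TEF1 at −0.92. All but RPL41A kept their call in the 8 leave-outs. RPL41A lost it in 4, and its difference was −0.87 without 4+3N mRNA replicate 2. In each of these genes mRNA levels were higher in 4+3N than in Nonrandom, with TEF1 at 115 and 93.4 CPM in Nonrandom mRNA and 216 and 242 CPM in 4+3N mRNA, while footprints differed less. The part of the mRNA libraries in these differences was not tested apart from the footprints.

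Of 9 genes without a copy, MFA2 at −0.88 kept its call in all 8 leave-outs but not after thinning to the smallest library (adjusted p = 0.264). Those of EDC1, an activator of mRNA decapping, at −1.31 and of TPM1, tropomyosin, at 0.68 were lost in 4 each, and that of SOK2, a transcription factor, at −1.14 in 3. The calls of EUC1 at 2.12, PRY1 at −0.78 and RPS12 at 0.52 were lost in 6 each, and those of ROX1, the repressor of hypoxic genes, at −0.99 and FCY1, cytosine deaminase, at 0.60 in 7 each.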

How the results depend on the processing

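The counts of genes with higher or lower footprint over mRNA were within 1.5 times the main ones with DESeq2, DESeq2 size factors, no filter, thinning, without copies or short genes and in either preparation alone. They moved with library totals (727 higher, 3608 lower, 128 and 1906 over 2-fold), by construction of the scaling, and against a 1.5-fold change (855 and 1157). Leaving out a library gave 1734 to 1806 higher, 2049 to 2147 lower, 499 to 543 over 2-fold higher and 1005 to 1064 over 2-fold lower. A replicate block gave 1852 and 2161, 80 genes for the difference between preparations and 222 for low against standard footprints, and changed no call of the 98 named ratios. The difference between preparations gave 3 genes without copies and the 5 ORFs and 20 to 79 on leaving out a library. Low against standard footprints gave 155 genes with library totals, 180 with DESeq2, 64 without genes under 300 bases, 29 with the other count list and 57 to 121 on leaving out a library. The cause of these moves was not tested. With library totals 238 genes called higher with TMM were called lower, none of them among the 98 named. No gene called in the reported fit was called in the other direction under the other alternatives run on the ratio. Footprint depth limits the lower end: with 3 reads worth up to 4.65 CPM, a gene without footprints is bounded, not measured.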
